A study of Mus musculus with 12 samples.

Results

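Tcl1 and Tfcp2l1 (also written Tcfcp2l1) are genes of mouse embryonic stem (ES) cells that the study ties directly to the histone demethylase Jmjd1a (current symbol Kdm3a). Each is read by 1 probe, so the description covers 2 of the 46133 probes on the array and 2 of the 17658 genes that a probe names alone. The probes were taken by gene symbol from the array's annotation, in which Tcl1 is probe 3520019 (transcript NM_009337) and Tfcp2l1 is probe 5340497 (NM_023755). The rule goes by gene name alone, but the genes were proposed with results of these data known.

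The study knocked down Jmjd1a and a second histone demethylase, Jmjd2c (Kdm4c), in E14 cells, an ES cell line grown here without feeder cells on gelatin, in serum with leukaemia inhibitory factor (LIF). Both enzymes take methyl groups off lysine 9 of histone H3, a mark that goes with silent chromatin. All 12 cultures were transfected with 2 µg of a pSUPER puro plasmid that expresses a short hairpin RNA. The hairpin targeted Jmjd1a in 3 cultures, Jmjd2c in 3 cultures and firefly luciferase (Luc), which mouse cells lack, in 6 control cultures. The labels describe the Luc cultures as selected with puromycin from the day after transfection until RNA was taken, and they call the replicates biological. For the knockdown cultures the text used here breaks off at that step. The labels describe 1 hairpin per target and name no clones, so an effect of the hairpin beyond its target was not tested. Luc replicates 1 to 3 served as controls for Jmjd1a and Luc replicates 4 to 6 for Jmjd2c. The labels do not name these 2 sets of arrays.

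Tcl1 encodes a small protein that binds the kinase Akt and raises its activity. It belongs to a family that in the mouse includes the Tcl1b genes, and its human counterpart is an oncogene of T-cell leukaemia. Tfcp2l1 encodes a transcription factor of the CP2 and grainyhead family. In mouse ES cells it acts downstream of LIF and Stat3, and it helps to hold cells in the naive state of pluripotency.

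The promoters of both genes are shown because the proposed link to Jmjd1a concerns histone marks at the genes themselves. Each is the RefSeq stretch of 250 bases that ends just before the annotated start of transcription, on build GRCm38.p6. Tcl1 is read from the minus strand (chr12:105222738-105222987) and Tfcp2l1 from the plus strand (chr1:118627695-118627944). Capitals mark matches to CCNCNCCC, a GC-rich box of the Klf and Sp factors, and to TATAAA, the TATA box.
Tcl1: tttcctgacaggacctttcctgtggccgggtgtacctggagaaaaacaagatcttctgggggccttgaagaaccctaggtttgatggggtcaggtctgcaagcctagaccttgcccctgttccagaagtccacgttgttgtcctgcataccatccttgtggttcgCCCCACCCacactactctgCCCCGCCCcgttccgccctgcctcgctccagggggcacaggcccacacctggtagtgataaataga
Tfcp2l1: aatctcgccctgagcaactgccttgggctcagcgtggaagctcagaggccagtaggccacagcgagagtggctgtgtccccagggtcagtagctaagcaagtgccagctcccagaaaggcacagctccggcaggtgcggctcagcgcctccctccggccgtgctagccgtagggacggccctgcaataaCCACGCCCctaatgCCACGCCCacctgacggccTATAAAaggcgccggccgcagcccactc
All motifs were searched on both strands, and no matches overlapped. CCNCNCCC had 2 matches in each promoter, and 45.9% of 32841 RefSeq promoters of the same length hold at least 1. The Tfcp2l1 promoter held TATAAA from 28 to 23 bases before the start, which 12.4% of promoters share, and the Tcl1 promoter did not; this motif was added after the sequences had been seen. Neither window held TTCNNNGAA (the Stat motif, in 7.02% of promoters), AAGGTCA (an Esrrb half-site, in 4.08%), ATGCAAAT (the octamer of Pou5f1, in 1.60%) or the paired CCAG half-sites of the CP2 family (in 2.78%). The Tcl1 window was 57.6% G and C with 7 CpG dinucleotides, and the Tfcp2l1 window was 65.2% G and C with 16 CpG dinucleotides. No mark, binding or accessibility of these promoters was measured in the arrays.

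The deposited values are background-subtracted probe intensities on a linear scale, which can be negative. Array means ran from 236 to 245, and 13591 to 14996 probes per array exceeded 32, the floor used here before taking log2. Arrays of the same group and set, Luc or knockdown, correlated at 0.995 to 0.997, and Luc arrays of different sets at 0.962 to 0.964, so the 2 sets stood apart. Both hairpins lowered their targets. The brighter tested Kdm3a probe read 1958.6 to 2267.4 on Luc replicates 1 to 3 and 785.3 to 850.9 on the Jmjd1a arrays, and the Kdm4c probe read 265.8 to 277.9 on Luc replicates 4 to 6 and 101.2 to 105.7 on the Jmjd2c arrays. Of 10 ES cell identity markers, 9 were above the floor on all 3 arrays of every group. Of 8 fibroblast markers, at most 1 was above the floor on all 3 arrays of a group, with a summed intensity of 83.9 to 177.3 per array.

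Tcl1 fell with both hairpins, to below the floor with Jmjd1a and to about the level of the other Luc set with Jmjd2c. Its intensity was 86.8, 95.6 and 123.6 on Luc replicates 1 to 3 (102 ± 19.2, mean ± SD, n = 3) and 22, 14.1 and 20.5 on the Jmjd1a arrays (18.9 ± 4.20, n = 3). It was 254.9, 271.2 and 235.7 on Luc replicates 4 to 6 (254 ± 17.8, n = 3) and 86.7, 82.6 and 93.1 on the Jmjd2c arrays (87.5 ± 5.29, n = 3). Within each set the knockdown and Luc arrays did not overlap, and the Jmjd1a arrays lay below all 6 Luc arrays. Arrays of 3 against 3 separated in this direction at 19.3% of the tested probes for Jmjd1a and at 23.2% for Jmjd2c, and all 3 Jmjd1a arrays lay below all 6 Luc arrays at 13.9%.

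Tfcp2l1 fell with Jmjd1a and showed a smaller difference with Jmjd2c. Its intensity was 3402.8, 3363.1 and 3701.9 on Luc replicates 1 to 3 (3489 ± 185, n = 3) and 2050.6, 1972.1 and 1937.2 on the Jmjd1a arrays (1987 ± 58.1, n = 3). It was 5209.6, 5548.7 and 4583.9 on Luc replicates 4 to 6 (5114 ± 489, n = 3) and 4423.1, 4712.1 and 4268.2 on the Jmjd2c arrays (4468 ± 225, n = 3). The Jmjd1a arrays lay below all 6 Luc arrays. The Jmjd2c arrays overlapped their Luc arrays, since Jmjd2c replicate 2 was brighter than Luc replicate 6. RNA came from whole cultures, so fewer cells with a transcript and less transcript per cell cannot be told apart.

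**Figure D1:**
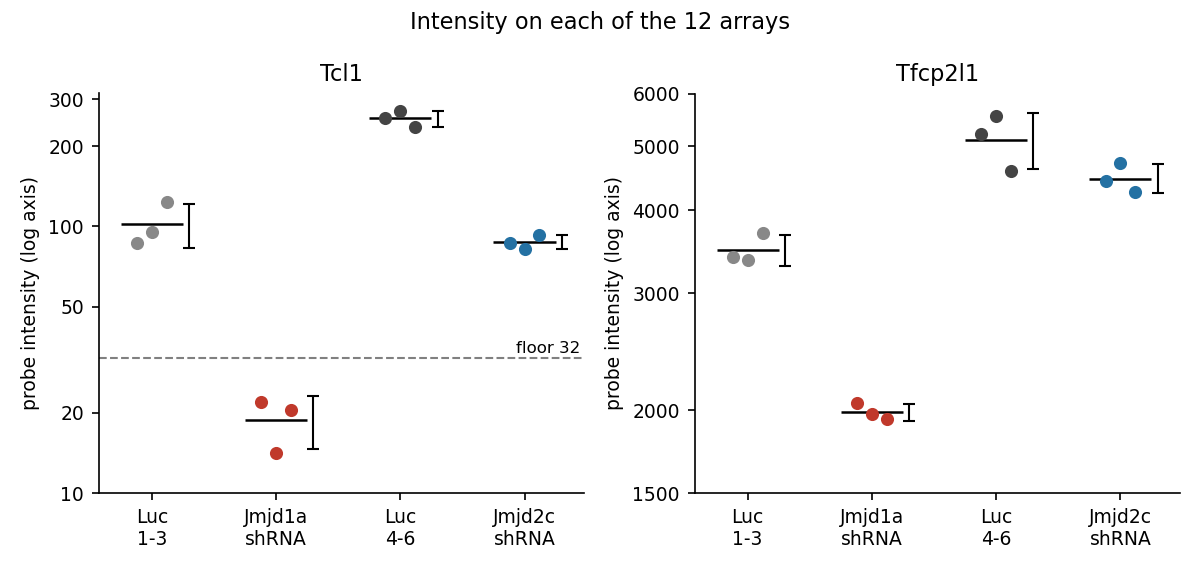
Intensity of the Tcl1 probe (left) and the Tfcp2l1 probe (right) on each of the 12 arrays, on log axes. Points are single arrays, horizontal lines are group means and the bars beside them are 1 SD (n = 3 arrays per group). All 3 Jmjd1a arrays lie below the floor of 32 (dashed line) for Tcl1, and only the Jmjd2c and Luc 4-6 arrays of Tfcp2l1 overlap within a set.

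The falls were tested with limma on the floored log2 values of all 12 arrays, with the 4 groups as separate means. Adjusted p-values are Benjamini-Hochberg values over the 15853 probes above the floor on at least 3 arrays, and calls were made at a threshold of 0.05. Of these probes 12.1% were called lower with Jmjd1a and 18.2% lower with Jmjd2c.

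With Jmjd1a, Tcl1 fell by at least 3.15-fold, the ratio of its Luc level to the floor. The fitted change was -1.66 ± 0.11 (log2, estimate ± SE; limma adjusted p = 1.05e-06), and neither that SE nor the p measures the spread of the Jmjd1a arrays, which all stand at the floor. Tfcp2l1 changed by -0.81 ± 0.08 (95% confidence interval -0.98 to -0.65; limma adjusted p = 1.40e-05), which left 57.0% of the Luc level. Its change ranked 228th from the lowest of the 15853.

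With Jmjd2c, Tcl1 was above the floor on every array, so its change of -1.54 ± 0.11 is a measured value (95% confidence interval -1.78 to -1.30; limma adjusted p = 1.34e-06). The Jmjd2c arrays kept 34.5% of the Luc level, a 2.90-fold fall that ranked 34th from the lowest. Tfcp2l1 changed by -0.19 ± 0.08 (95% confidence interval -0.36 to -0.03), at 87.6% of the Luc level, and did not pass the threshold (limma adjusted p = 0.0650). It ranked 3655th. It passed with median scaling (-0.21, limma adjusted p = 0.0429), a floor of 64 (0.0388), an offset of 50 in place of the floor (0.0442), a variance trend (0.0216) and without Luc replicate 6 (-0.27, limma adjusted p = 0.0119).

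Exact two-sided permutation tests over the arrays of a set cannot give a p under 0.1 with 20 splits. Tcl1 reached that p with both hairpins and Tfcp2l1 reached it with Jmjd1a, while the exact permutation p of Tfcp2l1 with Jmjd2c was 0.2.

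The difference between the 2 falls was tested as a contrast in the same fit. Tfcp2l1 fell more with Jmjd1a than with Jmjd2c, by -0.62 ± 0.11 (log2; 95% confidence interval -0.85 to -0.39; limma adjusted p = 0.00161). Differences were called lower at 11.8% of the tested probes and higher at 12.4%. For Tcl1 the difference was -0.12 ± 0.16 (95% confidence interval -0.46 to 0.22; limma adjusted p = 0.628). As Tcl1 with Jmjd1a has only a bound, this value depends on the floor. It was -0.85 at a floor of 16 (limma adjusted p = 0.0211) and -0.91 at a floor of 8 (0.0241), a setting chosen after seeing the data that leaves every Tcl1 value as measured. At that lowest floor the Tcl1 change with Jmjd1a itself was -2.44 (7.92e-06). At a floor of 64, which sets the Jmjd1a arrays to 64 and leaves the other arrays as measured, the difference turned to 0.88 (0.000471), and with an offset of 50 it was 0.01 (0.971). The size of the Tcl1 fall with Jmjd1a relative to that with Jmjd2c is therefore not settled by these arrays. Each hairpin is present in only 1 set, so an effect of the hairpin and of the set on these differences cannot be told apart.

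With Jmjd2c, where both genes were measured on every array, their intervals did not overlap and the Tcl1 change was the lower, but a difference between the genes was not tested. Tcl1 was among 31 tested probes (0.196%) that were called and at least 2-fold lower with both hairpins, a place that at a floor of 64 it would not hold, since its fitted change with Jmjd1a is then -0.66. These 31 are 25.6% of the 121 such probes with Jmjd1a and 14.2% of the 219 with Jmjd2c. Without the fold limit, 835 probes were called lower with both, which is 43.6% of those lower with Jmjd1a and 28.9% of those lower with Jmjd2c. Over all tested probes 12.1% were called lower with Jmjd1a and 18.2% with Jmjd2c. The comparisons share no arrays, but they share the fit's estimate of the spread of each probe, so the 2 sets of calls are not independent.

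**Figure D2:**
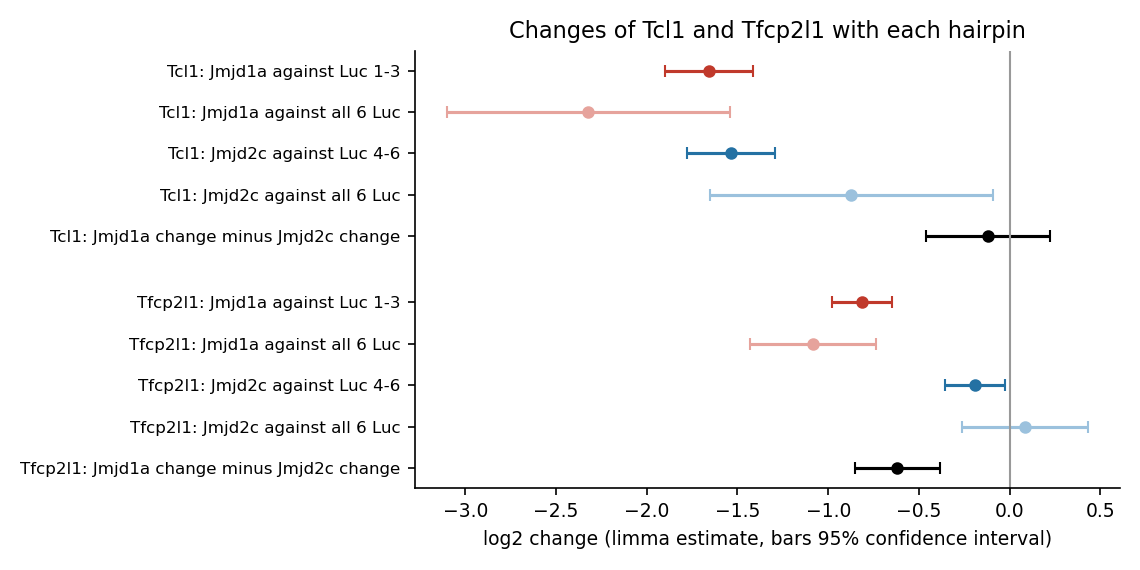
Log2 change of Tcl1 (upper 5) and Tfcp2l1 (lower 5) with each hairpin, against the Luc arrays of the same set and against all 6 Luc arrays, and the Jmjd1a change minus the Jmjd2c change within sets. Points are limma estimates and bars are 95% confidence intervals; the Tcl1 values with Jmjd1a rest on the floor. The Tfcp2l1 difference of -0.62 lies clear of 0 and that of Tcl1, -0.12, does not.

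The Luc arrays themselves differed for both genes. Tcl1 was higher on Luc replicates 4 to 6 than on replicates 1 to 3 by 1.33 ± 0.11 (log2; limma adjusted p = 1.00e-06), and Tfcp2l1 by 0.55 ± 0.08 (limma adjusted p = 6.32e-05). Such differences were common, with 37.1% of tested probes called higher and 20.9% called lower in that comparison, and the median probe moved by 0.10. The Tcl1 difference between the Luc sets was thus close in size to its fall with Jmjd2c. What separates the sets was not tested.

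In order of level, Tcl1 was lowest with Jmjd1a, then with Jmjd2c, then on Luc replicates 1 to 3, and highest on Luc replicates 4 to 6. The step from Jmjd2c to Luc replicates 1 to 3 was 0.21 (log2) and did not pass the threshold (limma adjusted p = 0.139). Tfcp2l1 was lowest with Jmjd1a, then on Luc replicates 1 to 3, then with Jmjd2c, and highest on Luc replicates 4 to 6. The Jmjd2c arrays exceeded Luc replicates 1 to 3 by 0.36 on the log2 scale (limma adjusted p = 0.00189), and the last step is the one that missed the threshold above.

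Against all 6 Luc arrays together, the design in the series description, the calls with Jmjd1a held and that of Tcl1 with Jmjd2c did not. With Jmjd1a, Tcl1 changed by -2.32 ± 0.36 (limma adjusted p = 0.00127) and Tfcp2l1 by -1.09 ± 0.16 (limma adjusted p = 0.000924), where 9.41% of probes were called lower. With Jmjd2c, Tcl1 changed by -0.87 ± 0.36 (limma adjusted p = 0.145) and Tfcp2l1 by 0.08 ± 0.16 (limma adjusted p = 0.791), where 3.26% of probes were called lower. Exact two-sided permutation tests used the 84 splits of 3 against 6 arrays. The exact permutation p was 0.0238 for both genes with Jmjd1a, the smallest these splits gave. It was 0.0476 for Tcl1 with Jmjd2c and 0.762 for Tfcp2l1 with Jmjd2c. The splits treat the 6 Luc arrays as alike, though the 2 Luc sets differed for both genes. These p-values therefore do not separate hairpin from set.

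The relatives of Tcl1 gave no signal to compare. All 5 Tcl1b genes on the array (Tcl1b1 to Tcl1b5, 6 probes) stayed at or near the background and none was tested. Their highest single intensity was 34.9, for Tcl1b5 on Jmjd1a replicate 3.

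The relatives of Tfcp2l1 were all tested, and none fell with Jmjd1a. Of 5 genes, 3 rose with Jmjd1a and 2 did not pass, beside 13.4% of probes called higher. Grhl2, a grainyhead factor of epithelial cells, rose by 0.67 ± 0.07 (limma adjusted p = 4.00e-05), from 310 to 334.8 on Luc arrays to 501.6 to 538.1 on Jmjd1a arrays. Grhl1 rose by 0.65 ± 0.12 (limma adjusted p = 0.00251), and Grhl3 rose by at least 1.49-fold, from below the floor on all 3 Luc arrays. Tfcp2 changed by -0.16 and Ubp1 by 0.12 on its brighter and -0.05 on its other tested probe, and neither gene passed. With Jmjd2c, Grhl2 rose by 0.29 ± 0.07 (limma adjusted p = 0.00694), Tfcp2 fell by 0.35 on the log2 scale (limma adjusted p = 0.0446) and Grhl3 fell by 0.58 (limma adjusted p = 0.00148), beside 20.7% of probes called higher and 18.2% called lower. The Grhl3 value is limited by the floor, with intensities of 27.3, 34.8 and 28.4 on the Jmjd2c arrays. The set difference of Grhl2 was larger than either change: Luc replicates 4 to 6 stood at -1.90 relative to replicates 1 to 3 (limma adjusted p = 2.76e-09). Relative to Tfcp2l1, the 3 grainyhead genes thus moved the opposite way with Jmjd1a. Against all 6 Luc arrays Grhl3 did not pass with Jmjd1a (0.26, limma adjusted p = 0.339) and no gene of the family passed with Jmjd2c. The Tfcp2 call with Jmjd2c ended under several other settings too, among them a floor of 16 (limma adjusted p = 0.0794).

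Genes of the kinase pathway that the Tcl1 protein acts in were called in both directions. Of 38 genes listed for PI3K and Akt signalling, 34 had a probe and 25 were tested. With Jmjd1a 5 rose, 6 fell and 14 did not pass, with a median change of -0.02 beside 0 for all tested probes, of which 13.4% were called higher and 12.1% lower. Inpp5d, a lipid phosphatase that removes the product of PI3K, fell by 1.14 on the log2 scale (limma adjusted p = 1.32e-07). Tsc2, a brake on mTOR, fell by 0.32 and Pdpk1, the kinase that activates Akt, fell by 0.29. Irs1, an adaptor of the insulin receptor, rose by 0.68, Foxo1, a transcription factor that Akt holds out of the nucleus, by 0.65 and Inppl1, a relative of Inpp5d, by 0.39. With Jmjd2c 9 rose, 4 fell and 12 did not pass, with a median of 0.04 beside 0.01 for all tested probes, of which 20.7% were called higher and 18.2% lower. Akt1s1, a substrate of Akt, rose by 0.55, Pik3r3, a regulatory subunit of PI3K, by 0.54 and Bad, a death-promoting substrate of Akt, by 0.49. Irs1 fell by 0.82, Eras, a Ras protein of ES cells that activates PI3K, fell by 0.68 and Pdpk1 fell by 0.25. Irs1 thus rose with one hairpin and fell with the other, with mean intensities of 36.3, 62.0, 61.6 and 34.5 on Luc replicates 1 to 3, Jmjd1a, Luc replicates 4 to 6 and Jmjd2c, close to the floor. Against all 6 Luc arrays 2 of the genes rose and 4 fell with Jmjd1a, Irs1 (0.34) and Inppl1 (0.09) no longer among them, and with Jmjd2c 6 rose and 1 fell. With only the 6 arrays of the set, 5 rose and 3 fell with Jmjd1a. Tsc2 did not pass there (limma adjusted p = 0.0772) or without the filter on dim probes (limma adjusted p = 0.0509).

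The LIF, Stat3 and naive-state genes around Tfcp2l1 fell or did not pass with Jmjd1a. Of 23 genes 22 were tested, 11 fell and none rose at the threshold, and the median change was -0.26, beside 12.1% called lower, 13.4% called higher and a median of 0 over all tested probes. Tbx3, a T-box factor downstream of LIF, fell by 0.93 on the log2 scale (limma adjusted p = 2.94e-07). Esrrb, an orphan nuclear receptor of the naive state, fell by 0.83 (limma adjusted p = 1.29e-06) and Klf4, a Stat3 target, fell by 0.71 (limma adjusted p = 3.04e-05). The Tfcp2l1 change of -0.81 lay between those of Esrrb and Klf4. Stat3 itself fell by 0.23 on the log2 scale (limma adjusted p = 0.0156), and Pou5f1, at -0.04, did not pass.

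With Jmjd2c the same list gave 3 rises, 6 falls and 13 genes that did not pass, with a median of -0.06, beside 20.7% called higher, 18.2% called lower and a median of 0.01 over all tested probes. Fgf4, a growth factor that drives exit from the naive state, fell by 0.72 on the log2 scale and Socs3, the feedback inhibitor of Stat3 signalling, fell by 0.53. The Fgf4 value is limited by the floor, with mean intensities of 57.7 on Luc replicates 4 to 6 and 31.2 with Jmjd2c. Nanog, a core factor of pluripotency, fell by 0.40. Gbx2, a Stat3 target, rose by 1.43 (limma adjusted p = 7.59e-09), Sall4 by 0.38 and Il6st, the receptor subunit that LIF signals through, by 0.22 from below the floor. Il6st was tested through the Jmjd2c arrays, whose mean intensity was 37.5, and its call ended under 5 alternatives, among them quantile normalization (0.15, limma adjusted p = 0.112). Esrrb and Klf4 changed by -0.09 and -0.05 with Jmjd2c and did not pass. In the difference of the falls, 8 of the 22 genes were lower with Jmjd1a and none higher, beside 11.8% and 12.4% of all tested probes, among them Esrrb at -0.74 (limma adjusted p = 6.82e-05), Klf4 at -0.66 (0.000888) and Tbx3 at -0.54 (0.000338). Socs3 fell by 0.52 with Jmjd1a, and its difference of 0.01 did not pass (limma adjusted p = 0.969), as for Tcl1 at the floor of 32. Against all 6 Luc arrays 10 of the 22 genes fell with Jmjd1a, while with Jmjd2c 2 fell and 0 rose, and Gbx2 with Jmjd1a turned to 0.68. Gbx2 differed strongly between the sets, with mean intensities of 4318 on Luc replicates 1 to 3 and 1062 on replicates 4 to 6.

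**Figure D3:**
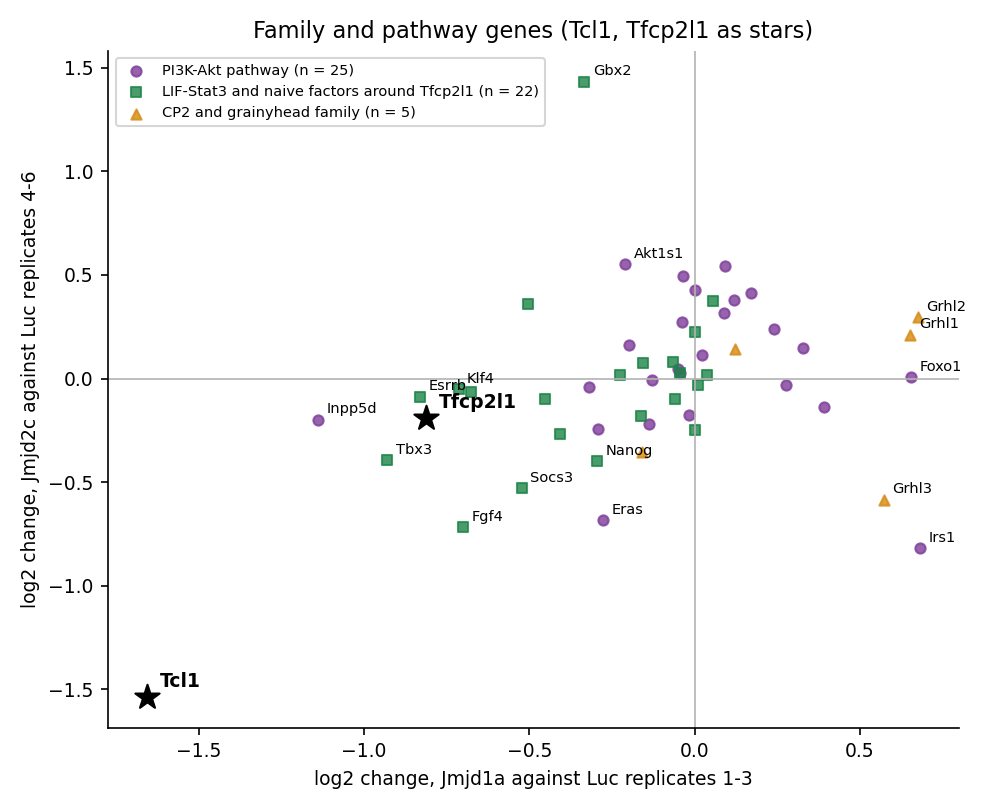
Log2 change with Jmjd1a (horizontal axis) and with Jmjd2c (vertical axis), each against its own 3 Luc arrays, for the tested genes of the PI3K-Akt list (25), the LIF and naive list (22) and the CP2 and grainyhead family (5). Points are single genes with 1 probe each, and stars are Tcl1 (-1.66, a bound, and -1.54) and Tfcp2l1 (-0.81 and -0.19). Tfcp2l1 lies beside Esrrb and Klf4, and no listed gene lies near Tcl1.

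Markers of other cell types moved with the hairpins and with the sets. The summed intensity of 12 primitive endoderm markers was 2778 to 2919 on Luc replicates 1 to 3 and 1429 to 1539 with Jmjd1a, and 1685 to 1774 on Luc replicates 4 to 6 and 4969 to 5382 with Jmjd2c. Of the 9 that were tested, 5 fell with Jmjd1a and 8 rose with Jmjd2c, beside 12.1% of all tested probes called lower and 20.7% called higher. Among these 8, Lama1 was below the floor in the other groups. It entered the test through the Jmjd2c arrays, at a mean intensity of 40.9, so it could only count as a rise. The same holds for Sox17, which passed the filter only with the Jmjd2c arrays, at a mean intensity of 147.9. Its mean was 7.2 on Luc replicates 4 to 6, which were all below the floor, and 39.2 on Luc replicates 1 to 3. The sum of 7 primed epiblast markers was 7960 to 8200 on Luc replicates 1 to 3 and 10378 to 11659 with Jmjd1a, and 2625 to 2915 on Luc replicates 4 to 6 and 3827 to 4103 with Jmjd2c. Most of it was Dnmt3b, with means of 7180, 9839, 2158 and 3330 in that order of groups, while Otx2 passed with neither hairpin. The sum of 10 trophectoderm markers was 1654 to 1705, 1897 to 1998, 2642 to 3196 and 3673 to 4003 in the same order of groups. Most of it was Tfap2c, with means of 1156.5, 1024.5, 2178.1 and 2221, which passed with neither hairpin. The levels of these 2 sums thus rest largely on 1 gene each. The shift of the trophectoderm sum with the hairpins does not rest on Tfap2c. Krt8 in that list had means of 164.5, 321.5, 209.6 and 779.3 in the same order of groups. Of 4 tested primed epiblast markers 3 rose with Jmjd1a and 2 with Jmjd2c, and of 8 tested trophectoderm markers 5 and 4 rose, beside 13.4% and 20.7% of all tested probes called higher. Fgf5, among the 3 primed epiblast rises with Jmjd1a, passed the filter only with the Jmjd1a arrays. Its mean intensity was 144 there and 33.5 on Luc replicates 1 to 3. Tead4, among the 4 trophectoderm rises with Jmjd2c, likewise entered the test through the Jmjd2c arrays, at a mean intensity of 42.5. In each list 2 to 5 markers were below the floor on all 3 arrays of a group. ES cell identity markers summed to 19780 to 24186 on all arrays. The part of these shifts in the levels of Tcl1 and Tfcp2l1 was not tested.

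Across the 12 arrays other genes followed each pattern closely. By Pearson's r of log2 values, the genes most like Tcl1 were Gstp1 (0.997), a glutathione transferase, Fxyd6 (0.993), a regulator of the sodium pump, Plin3 (0.993), a lipid droplet protein, Vill (0.992), a relative of villin, and Rec114 (0.991). Those most like Tfcp2l1 were Liph (0.989), a lipase, Obsl1 (0.988), a cytoskeletal adaptor, Myof (0.987), a membrane repair protein, Stard8 (0.987) and Tiam1 (0.986), an activator of Rac. These values describe 12 arrays that share the hairpins and the array sets. As the genes were chosen over the same arrays, their changes restate that choice and are given as a description. Fxyd6 had group means of 3630 (Luc replicates 1 to 3), 1478 (Jmjd1a), 6972 (Luc replicates 4 to 6) and 3078 (Jmjd2c), with changes of -1.30 and -1.18. Rec114 changed by -2.21 with Jmjd1a and -2.01 with Jmjd2c. Among the genes like Tfcp2l1, Stard8 changed by -1.81 with Jmjd1a and -0.28 with Jmjd2c, and Liph by -1.50 and -0.48.

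The nearest tested genes around Tcl1 and Tfcp2l1 on their chromosomes moved in both directions. Neighbours are the 5 nearest genes with a tested probe on each side, in the order of the GRCm38.p6 gene table, in which other genes lie between. Many are not close: the nearest to Tcl1, Atg2b, is 9 genes away and Ppp4r4 is 65. Around Tfcp2l1 they range from Gli2, 2 genes away, to Kdsr, 78 genes away. Of the 20, 5 were called lower and 3 higher with Jmjd1a, and 4 lower and 5 higher with Jmjd2c, beside 12.1%, 13.4%, 18.2% and 20.7% of all tested probes. On chromosome 12, Glrx5 and Atg2b, the tested genes next to Tcl1, changed by 0.16 (not passing) and 0.21 (limma adjusted p = 0.0109; 0.546 against all 6 Luc arrays) with Jmjd1a. Papola, a poly(A) polymerase on the Atg2b side, fell by 0.26 on the log2 scale with Jmjd1a (limma adjusted p = 0.00928). Clmn, the second tested gene on the Glrx5 side, fell by 0.76 on the log2 scale with Jmjd1a (limma adjusted p = 0.00149) and by 0.79 with Jmjd2c (limma adjusted p = 0.000700); against all 6 Luc arrays the latter was -0.22 (limma adjusted p = 0.707). Dicer1, the ribonuclease that makes microRNAs, came next and fell by 0.51 with Jmjd1a and rose by 0.36 with Jmjd2c, a call that ended with only the 6 arrays of the set (limma adjusted p = 0.0528). Ppp4r4 was below the floor on all 9 other arrays and rose by at least 2.12-fold with Jmjd1a, the group through which it entered the test.

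On chromosome 1, the next tested gene after Tfcp2l1 was Gli2, a transcription factor of Hedgehog signalling, and the one after it was Inhbb, a subunit of activin. Gli2 fell by 0.81 on the log2 scale with Jmjd1a (limma adjusted p = 3.30e-06), from a mean intensity of 864 to 491, and by 0.49 with Jmjd2c (limma adjusted p = 0.000108). Inhbb fell by 1.31 with Jmjd1a (limma adjusted p = 2.69e-06), from 274 to 111, and by 0.76 with Jmjd2c (limma adjusted p = 9.88e-05). Both fell more with Jmjd1a, by a difference of -0.33 for Gli2 (limma adjusted p = 0.0203) and -0.54 for Inhbb (limma adjusted p = 0.0146). Inhbb was also lower on Luc replicates 4 to 6, at 124, than on replicates 1 to 3, and against all 6 Luc arrays its change with Jmjd1a was -0.73 (limma adjusted p = 0.121). The other 8 neighbours of Tfcp2l1 were not called lower with Jmjd1a. Of these Clasp1, on the other side, rose by 0.56 with Jmjd1a and fell by 0.56 with Jmjd2c, and Nifk, at 0.01 with Jmjd1a, rose by 0.53 with Jmjd2c. Against all 6 Luc arrays none of these 3 changes passed: Clasp1 stood at 0.08 and -0.08 (limma adjusted p = 0.843 and 0.877) and Nifk at 0.13 (limma adjusted p = 0.753).

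**Figure D4:**
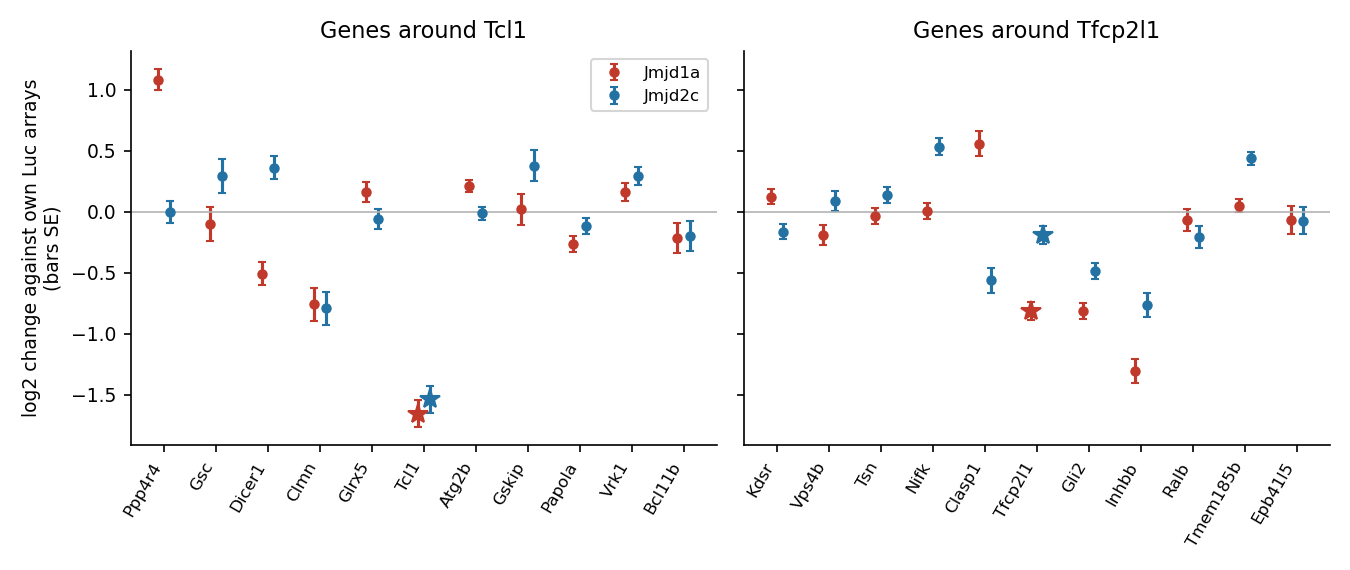
Log2 change of Tcl1 and Tfcp2l1 (stars) and of the 5 nearest tested genes on each side (points), in chromosome order, with Jmjd1a (red) and Jmjd2c (blue), each against its own 3 Luc arrays; bars are SE. Tcl1 lies lower than all 10 of its neighbours, while Gli2 and Inhbb, the nearest tested genes after Tfcp2l1, are lower with both hairpins.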

How the data were processed

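The 12 one-colour Illumina bead arrays of biotin-labelled cRNA, made from 500 ng of total RNA per the labels' protocols, were read from the deposited table. The deposited values are intensities on a linear scale, from which the authors had subtracted a background, since 35.0% to 36.8% of the probes of an array are below 0. The background method and any array scaling were not given in the sources used here. Precision is limited by the number of arrays.

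Intensities under 32 were set to 32 and put on the log2 scale. The 15853 probes above 32 on at least 3 arrays were tested with limma 3.58.1 in R 4.3.3, with 4 group means and 8 residual degrees of freedom, and p-values were adjusted by Benjamini-Hochberg over these probes. SD is over arrays and SE from the fit. Single genes were also compared by exact permutation in scipy 1.17.1. A group wholly at the floor gives a bound, so folds against it are at least the value printed. Probe names come from the array annotation: 29542 probes have 1 gene symbol, 11 several and 16580 none, and both member probes matched the GRCm38.p6 table.

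The genes named are the members, the targets, both gene families, from each list and comparison the called genes that rose or fell most (up to 3 each way), with 1 probe per gene (the brightest), the 5 genes most like each member and the 5 nearest tested neighbours on each side; Stat3 and Pou5f1, and Esrrb, Klf4 and Socs3 in further comparisons, were added after values were seen. Members and lists were chosen with earlier results of these data known. Within the Jmjd1a set, deviations of Jmjd1a and Luc arrays with the same replicate number correlated at -0.002, 0.014 and 0.108. Arrays with different numbers gave -0.091 to 0.088, so pairing of the cultures by number was neither shown nor excluded. Pairing of the Jmjd2c arrays with their Luc arrays was not examined. The limma step was checked on simulated data. Alternatives were other controls, scalings, floors, filters and fits, and leaving out each array.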

Additional observations from a re-analysis of the deposited data

Results flagged for a closer look

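Changes of the genes chosen for naming that differed between the 2 hairpins, by the contrast of the Jmjd1a change minus the Jmjd2c change in limma (adjusted p under 0.05), are given here as values on the log2 scale, negative where the gene was lower with Jmjd1a. The list is not complete. Of 25 PI3K and Akt genes 7 were lower and 4 higher, and of 22 LIF and naive genes 8 were lower and 0 higher. The neighbour Kdsr, at 0.29, also differed. Of all tested probes 11.8% were lower and 12.4% higher. Over the 6 Luc arrays no single array stood apart for any named gene, and groups of 3 were not examined for this. As the 2 Luc sets differed for many of these genes, that check could hardly single out 1 array. Tfcp2l1 differed by -0.62. The target probes differed by -1.82 and -1.51 (Kdm3a) and 1.40 (Kdm4c). In the grainyhead family Grhl2 differed by 0.38 and Grhl3 by 1.16, the latter limited by the floor. Among PI3K and Akt genes, Inpp5d differed by -0.94, Akt1s1 by -0.76, Bad by -0.53 and Pik3r3 by -0.45, while Irs1 differed by 1.499, Foxo1 by 0.65, Inppl1 by 0.53 and Eras by 0.41. Among LIF and naive genes, Gbx2 differed by -1.77, Esrrb by -0.74, Klf4 by -0.66, Tbx3 by -0.54 and Sall4 by -0.32. Among the genes most like Tfcp2l1, Stard8 differed by -1.53, Liph by -1.02, Myof by -0.90, Obsl1 by -0.51 and Tiam1 by -0.41. As these genes were chosen for their likeness to Tfcp2l1 over the same arrays, their differences restate that choice. Among the nearest tested genes around Tcl1, Dicer1 differed by -0.87, Atg2b by 0.22 and Ppp4r4 by 1.08. The Ppp4r4 value is a bound, since it was above the floor only on the Jmjd1a arrays through which it entered the test. Among those around Tfcp2l1, Inhbb differed by -0.54, Nifk by -0.53, Tmem185b by -0.39, Gli2 by -0.33 and Clasp1 by 1.12. Each hairpin was run in 1 array set, so hairpin and set cannot be told apart in any of these values.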

How the results depend on the processing

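The calls of Tcl1 and Tfcp2l1 with Jmjd1a, of Tcl1 with Jmjd2c and of the Tfcp2l1 difference kept their direction and their side of the threshold under every alternative run, except that Tcl1 with Jmjd2c did not pass against all 6 Luc arrays (-0.87, limma adjusted p = 0.145). Requiring all 12 arrays above the floor gave no value for Tcl1. Against all 6 Luc arrays, Tfcp2l1 with Jmjd2c turned to 0.083, the Tcl1 difference passed at -1.45 and the count of probes called with Jmjd2c fell from 6176 to 1896; Gbx2 with Jmjd1a turned to 0.68, and with Jmjd2c Kdm3a turned to -0.0038 (probe 101980097), Tfcp2 to 0.12, Grhl2 to -0.65, Inpp5d to 0.43, Pdpk1 to 0.023, Tbx3 to 0.18, Obsl1 to 0.13, Stard8 to 0.31 and Tiam1 to 0.031. In the same setting the naive list with Jmjd2c gave 0 rises and 2 falls, from 3 and 6. That alternative moves the control level of each set by construction. Tfcp2l1 with Jmjd2c passed with median scaling (-0.21), a floor of 64 (-0.19), an offset of 50 (-0.19) and a variance trend (-0.19), and ran from -0.27 to -0.13 when single arrays were left out. The Tcl1 difference was -0.85 and passed at a floor of 16, -0.91 and passed at a floor of 8 (chosen after seeing the data), 0.88 at a floor of 64 and 0.0072 with an offset of 50; leaving out single arrays gave -0.23 to 0.028, the upper value without Luc replicate 3. The fitted Tcl1 change with Jmjd1a ran from -2.44 (floor of 8) to -0.66 (floor of 64), as its lower end is the floor. Testing probes of any level cut the count called with Jmjd1a from 4040 to 2624 and that of the difference from 3844 to 2330, as more probes were tested. With the replicate number as a block, Tcl1 and Tfcp2l1 with Jmjd1a kept -1.66 and -0.81 (limma adjusted p = 0.0283 and 0.0259) and 2159 probes were called, and in the PI3K and Akt list 2 genes rose and 3 fell, with Foxo1, Irs1, Eras, Akt1s1, Clasp1, Clmn and Dicer1 no longer passing; not every array correlated best with its own number. Precision is limited by 3 arrays per group, and Tcl1 stands close to the floor.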
